A study of Mus musculus with 4 samples.

Results

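The mitochondrial ribosomal protein genes are the nuclear genes named Mrpl (large subunit) and Mrps (small subunit). They were taken as every gene symbol of the form Mrpl or Mrps, a number and at most 1 further letter, and were followed in cells with at least 1000 detected genes. This gave 77 members, 48 Mrpl and 29 Mrps, of 24411 genes in the tables. The cells were haematopoietic stem cells (HSC) from mouse bone marrow, isolated by fluorescence-activated sorting and picked singly, with 2 libraries of the genotype Mat KO and 2 of wild type (WT). Each was read by a modified STRT-seq method, in which cDNA is primed from the poly(A) tail with an oligo that adds both the barcode of the cell and a unique molecular identifier (UMI), so that a count is a tag near the 3′ end of a polyadenylated transcript. The series concerns small nucleolar RNAs of the imprinted Dlk1-Gtl2 locus, ribosomal RNA modification and translation. The labels give neither the deleted stretch of the locus nor the age, sex or number of the animals. They also do not say whether libraries came from separate animals, so each p-value below measures only the spread between libraries, which may be technical.

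Mitochondria keep a small genome that encodes only core subunits of the respiratory chain and the ATP synthase, along with the ribosomal and transfer RNAs needed to translate them. The proteins of the mitochondrial ribosome are all encoded in the nucleus, made by cytosolic ribosomes and imported, so this ribosome is built from transcripts of both genomes. Its large subunit joins amino acids and its small subunit reads the messenger RNA. Some of its proteins have a counterpart in bacterial ribosomes and others exist only in mitochondria. Long-term HSC are mostly quiescent, are known for a low protein synthesis rate and rely on regulated mitochondrial activity when they leave quiescence.

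The 4 libraries held 188 cells, 44 and 48 in Mat KO and 48 in each WT replicate, with 1768647 to 3253608 gene UMIs per library. Median UMIs per cell were 33612.5 and 27845 in Mat KO replicates 1 and 2, below 53092.5 and 51437 in WT. Of the plate's barcode numbers, 44 were kept in every library. Meg3, the noncoding RNA of the locus, had 35 and 58 UMIs in Mat KO, with 168 and 153 in WT, which checks the genotype only if its tag lies in the deleted part. All 13 long-term HSC markers had UMIs in each library. Summed, they had 1437 and 1856 CPM (UMIs per 1000000 gene UMIs of a library) in Mat KO and 2078 and 1635 in WT, so the genotypes overlapped. Several were seen in a smaller share of Mat KO than of WT cells, where Mat KO cells had the lower depth. Among them were Kit (79.5% and 87.5% of cells against 91.7% and 97.9%), Ly6a (36.4% and 54.2% against 62.5% in each), Procr (40.9% and 37.5% against 54.2% and 47.9%) and Mecom (38.6% and 47.9% against 52.1% and 62.5%). Others did not separate the genotypes in this way. Hlf was seen in 79.5% and 85.4% of cells against 100% and 85.4%, and Slamf1 in 18.2% and 4.17% against 12.5% and 20.8%. The 16 granulocyte or monocyte markers summed to 36638 and 5828 CPM in Mat KO replicates 1 and 2 and to 7301 and 3516 in WT, with UMIs for 14, 14, 16 and 13 of them. Mat KO replicate 1 therefore stood apart, with 25 of its 44 cells carrying markers of another lineage against 7 to 10 cells in the other libraries. Erythroid markers summed to 606 CPM in WT replicate 2 and to at most 47.4 elsewhere, while the globin genes Hba-a1, Hba-a2, Hbb-bs and Hbb-bt were at 0 in every library. T and NK cell markers summed to 285 and 87.6 CPM (Mat KO) and 13.8 and 76.5 (WT), with Cd3e and Gzmb at 0 everywhere, and B-lymphoid markers to 1451 and 1318 (Mat KO) and 1214 and 558 (WT), so that in both lists each Mat KO library was above each WT library. The main results are given again for the 139 cells low in markers of other lineages, called lineage-low, and the part of the other cells in any result was not tested.

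Start regions of the members held some short motifs in a larger share than those of other tested genes. RefSeq start regions (GRCm38.p6, from 250 bases before to 50 after each start) were found for 68 of the 77 members and were searched on both strands. The core site of ETS factors, CCGGAAG, a family that includes the respiratory gene regulator NRF-2 (GABP), lay in 25 of 68 members (36.8%), against 21.6% of 8154 other tested genes. A gene can have more than 1 start region, or window. Counted by window, the core lay in 25 of 74 windows of members (33.8%) and in 8.86% of all 32851 windows. The YY1 core AAGATGGCG lay in 8 of 68 members (11.8%), against 3.97% of other tested genes. By window it lay in 8 of 74 (10.8%) for the members and in 1.40% of all windows. The NRF1 site lay in 13 (19.1% against 12.3%). The CCAAT box CCAAT lay in 39.7% of members and 42.9% of other tested genes, the E-box CACGTG in 7.35% and 12.3%, and the TATA box TATAAA in 7.35% and 8.44%. The 8 YY1 matches are shown with their flanking bases, with the core in capitals and each sequence written 5′ to 3′ on the strand of the match:
Mrpl35, chr6:71823743-71823771, minus strand: ggcaggctgcAAGATGGCGgcttccatct
Mrpl36, chr13:73330968-73330996, minus strand: gccaggaagaAAGATGGCGtaaggtcacg
Mrpl37, chr4:107066822-107066850, minus strand: tgcacgggcaAAGATGGCGgcgtccaggt
Mrpl42, chr10:95501904-95501932, minus strand: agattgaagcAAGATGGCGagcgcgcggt
Mrps11, chr7:78783013-78783041, minus strand: ggaagacagaAAGATGGCGgcgcccgtag
Mrps18a, chr17:46111005-46111033, plus strand: ggtgcgttccAAGATGGCGgccctcaggg
Mrps24, chr11:5707652-5707675, minus strand: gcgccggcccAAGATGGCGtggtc
Mrps27, chr13:99344790-99344818, plus strand: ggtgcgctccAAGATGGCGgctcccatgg
In 6 of these 8 members the centre of the match lay 15 to 40 bases after the RefSeq start and the core was on the gene's own strand. In Mrpl36 and Mrps11 it lay 27 and 104 bases before the start, on the opposite strand. The Mrps11 match lies inside the neighbouring gene Mrpl46, on that gene's own strand. It was not counted for Mrpl46, whose searched window ends 50 bases after the start. Members with a YY1 match had a median log2 fold change between genotypes of -0.30 and those without one of -0.39, so the match did not set the 2 sets far apart. For the ETS core the medians were -0.58 with and -0.38 without, and for NRF1 -0.61 and -0.31. The letters of the ETS and YY1 cores can overlap in AAG. A match is a run of letters, and neither binding nor the differences between these shares were tested.

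The member with the most UMIs was Mrpl52, a mitochondria-specific protein of the large subunit (mm10 chromosome 14, 54426909 to 54429756, plus strand, 5 exons). Its start region is shown because it holds the ETS core on the minus strand in 2 copies, in capitals as CTTCCGG on the gene's strand:
Mrpl52, chr14:54426689-54426938, plus strand: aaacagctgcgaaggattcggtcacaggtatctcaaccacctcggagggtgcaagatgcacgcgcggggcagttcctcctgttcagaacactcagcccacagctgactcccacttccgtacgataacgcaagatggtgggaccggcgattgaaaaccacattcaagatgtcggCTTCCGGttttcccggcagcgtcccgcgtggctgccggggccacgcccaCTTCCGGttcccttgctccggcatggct
Mrpl52 was counted at 267 and 324 CPM in replicates 1 and 2 of Mat KO and at 385 and 517 in those of WT. Both Mat KO libraries lay below both WT libraries. By edgeR's quasi-likelihood test the log2 fold change was -0.58 (SE 0.27, n = 2 libraries each), which did not pass at a Benjamini-Hochberg adjusted p of 0.648. It was also the member seen in most cells, in 133 of the 170 cells that could be thinned to 8800 UMIs.

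Many members start close to another gene. A coding gene on the opposite strand started within 1000 bases upstream of 24 of 68 members (35.3%), against 13.6% of 7932 other coding genes tested, at a median distance of 136 bases for the members, a difference that was not tested. One such pair joins the subunits: Mrpl46, of the large subunit, and Mrps11, of the small subunit, start 42 bases apart on chromosome 7. The YY1 match listed above for Mrps11 lies outside the stretch shown here, further into Mrpl46. The stretch runs from 30 bases inside one gene to 30 bases inside the other, and neither the ETS core nor the YY1 core was found in it:
Mrpl46 and Mrps11, chr7:78783060-78783160, plus strand: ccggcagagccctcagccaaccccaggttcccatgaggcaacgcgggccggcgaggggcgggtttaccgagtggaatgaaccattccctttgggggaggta
Mrpl46 had 26.3 and 37.9 CPM for Mat KO against 34.9 and 44.9 for WT. Mrps11 had 44.7 and 36.8 against 90.8 and 37.8. For Mrpl46 the libraries of the genotypes overlapped, and for Mrps11 the WT replicates differed more from each other than WT replicate 2 did from Mat KO. Apart from this pair, 22 members had a partner that is no member. Of these partners 19 were tested and 14 (73.7%) had a lower value in Mat KO, against 50.6% of all genes tested, and in 10 pairs both genes had one. Mrpl49 and Fau, a gene for a cytosolic ribosomal protein precursor, start 192 bases apart, yet their log2 fold changes were -2.36 and -0.07. The members are spread over 17 chromosomes, with 10 on chromosome 11. A coding gene on the opposite strand overlaps 23 of them, and the sources used here do not say whether counting used strand, so reads of these pairs may not be separable.

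Each member had UMIs in every library. Their summed share of all gene UMIs was 0.443% and 0.452% in Mat KO replicates 1 and 2 (exact binomial 95% intervals 0.434% to 0.453% and 0.442% to 0.462%) and 0.558% and 0.633% in WT replicates 1 and 2 (0.550% to 0.566% and 0.624% to 0.641%). The intervals cover counting error only. The means were 0.448% ± 0.006 (SD, n = 2) in Mat KO and 0.595% ± 0.053 (SD, n = 2) in WT, a ratio of 0.752. Both Mat KO libraries lay below both WT libraries, which with 2 libraries against 2 cannot be carried further by a permutation test, whose smallest p is 0.333 (exact, two-sided). The median over single cells was 0.363% and 0.354% in Mat KO, with 0.488% and 0.509% in WT. Cells varied far more than libraries. Their shares ran from 0.179% to 0.893% and from 0.060% to 0.697% in the Mat KO libraries, and from 0.267% to 0.916% and from 0.112% to 1.32% in the WT libraries. Counting error is larger in cells, which held as few as 4 and 5 UMIs of the members in Mat KO and 17 and 13 in WT. Its part in the spread between cells was not tested.

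**Figure D1:**
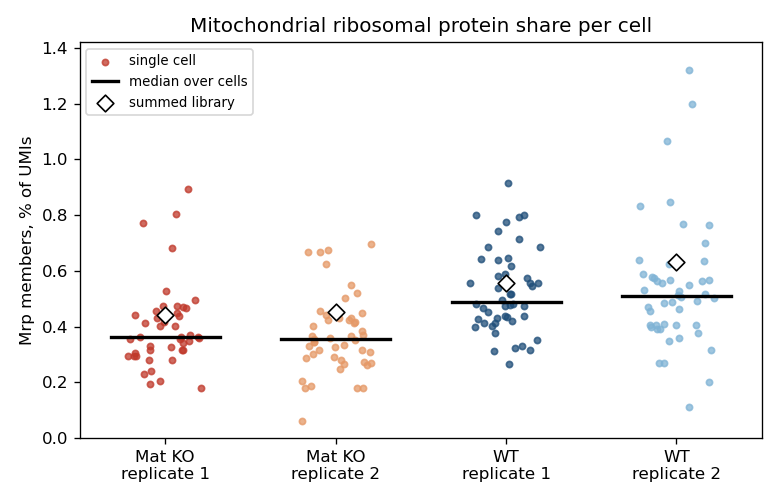
Percent of gene UMIs in the 77 members (vertical axis) for each cell (points) of the 4 libraries, with the median over cells as a line and the summed library as a diamond. The medians of the Mat KO libraries, 0.363% and 0.354%, lie below those of WT, 0.488% and 0.509%, while the cells of all libraries overlap.

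The lower share in Mat KO was present in each way of summing that was tried. In lineage-low cells the shares were 0.444% and 0.400% for Mat KO against 0.527% and 0.573% for WT, and their difference was -0.128 percentage points, against -0.148 in all cells. With every cell thinned to 8800 UMIs they were 0.399% and 0.379% against 0.520% and 0.545%. Without Mrpl52, which alone made up 10.5% of the summed difference between genotypes, they were 0.416% and 0.420% against 0.519% and 0.581%. In all 9 alternatives both Mat KO libraries stayed below both WT libraries. Other quantities moved with the share, and their part in the difference was not tested. Gene UMIs per spike-in UMI were 0.960 and 0.881 in Mat KO, with 1.19 and 1.39 in WT, so the members' UMIs per 1000 spike-in UMIs were further apart, at 4.26 and 3.98 against 6.63 and 8.81. The sums alone do not separate fewer cells with these transcripts from less of them per cell. Each kept cell held at least 4 UMIs of the members, so no cell lacked them as a set. The median share over cells was also lower for Mat KO (0.363% and 0.354%, against 0.488% and 0.509% for WT). For single members this was not tested.

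Large and small subunit genes kept nearly the same proportion. The Mrpl members made up 0.295% and 0.293% of UMIs in Mat KO, with 0.362% and 0.425% in WT, a ratio of the means of 0.746. The Mrps members made up 0.149% and 0.159% in Mat KO, with 0.196% and 0.208% in WT, a ratio of 0.763. For both subunits the genotypes did not overlap. There were 1.98 and 1.84 Mrpl UMIs for each Mrps UMI in Mat KO, with 1.85 and 2.05 in WT, so that the genotypes overlapped and replicates differed by more than the genotype means, 1.91 ± 0.10 and 1.95 ± 0.14 (SD, n = 2). The proteins of Mrps18a and Mrps30 sit in the large subunit despite their names, and with both moved the mean ratio was 0.0033 higher in Mat KO in place of the -0.037 found otherwise. In lineage-low cells, with both left as named, the difference was -0.11, and the genotypes again overlapped. A single member was counted at about the same level in either subunit, with a median over members of 57.4 CPM for Mrpl and 55.6 for Mrps. Across cells, the Mrpl and Mrps shares had a Spearman rho of 0.18 and 0.40 in the Mat KO libraries (44 and 48 cells) and 0.14 and 0.57 in the WT libraries (48 cells each). Both shares rest on the same cell's total, and few UMIs per cell limit such a relation.

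The members were also set apart by their origin. By their numbers, 44 members (29 Mrpl and 15 Mrps, with Mrpl47 and Mrps24 among them) were grouped as of families shared with bacteria. The other 33 were counted as mitochondria-specific, with Mrps18a and Mrps18b among them although they share their number with Mrps18c. The grouping was made after the values were seen. The first set had a mean of 0.273% of UMIs in Mat KO and 0.370% in WT, a ratio of 0.738. The second had 0.174% and 0.226%, a ratio of 0.773. Values were lower in Mat KO for 38 of 44 shared (86.4%) and 22 of 33 mitochondria-specific members (66.7%), against 50.6% of all genes tested. Their median log2 fold changes were -0.39 and -0.28. Both Mat KO libraries lay below both WT libraries for 17 (38.6%) and 11 (33.3%) of them, against 21.3% of all genes tested. By edgeR, 4 shared and 7 mitochondria-specific members had an unadjusted p under 0.05 in either direction. Of all genes tested, 3.32% had such a p with a lower and 4.5% with a higher value. Both Mat KO libraries lay above both WT libraries for Mrpl54 and Mrpl41 only, both mitochondria-specific, against 17.8% of all genes tested. The difference between the sets was not tested.

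Levels of single members spanned a wide range. CPM values count tags at the transcript's 3′ end and are not scaled by length, so they compare numbers of tagged molecules between genes. The highest mean over the 4 libraries, 373 for Mrpl52, was 77.7 times the lowest, 4.80 for Mrps18b, and the median member was at 55.9. The 8 highest members were Mrpl52, Mrpl33, Mrpl30, Mrpl23, Mrpl54, Mrps5, Mrps16 and Mrps14, which held 26.7% of the members' summed level. Mrpl33, a small protein of the bacterial L33 family, had 215 and 236 CPM in Mat KO, with 214 and 301 in WT. Mrpl30 had 130 and 144 against 143 and 176, and Mrpl23, of a family placed at the exit of the nascent chain tunnel, 127 and 126 against 162 and 158. Mrpl52, Mrpl23 and Mrps5 of the 8 lay below WT in both Mat KO libraries, as did 21.3% of all genes tested. Mrps5, of a family at the messenger RNA entry of the small subunit, had 58.9 and 106 against 121 and 191 CPM (a log2 fold change of -0.89, SE 0.40, edgeR adjusted p = 0.627). For the small subunit proteins Mrps16, with 128 and 82.0 against 106 and 159, and Mrps14, with 117 and 111 against 77.3 and 166, WT replicate 1 lay within or below the Mat KO values.

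**Figure D2:**
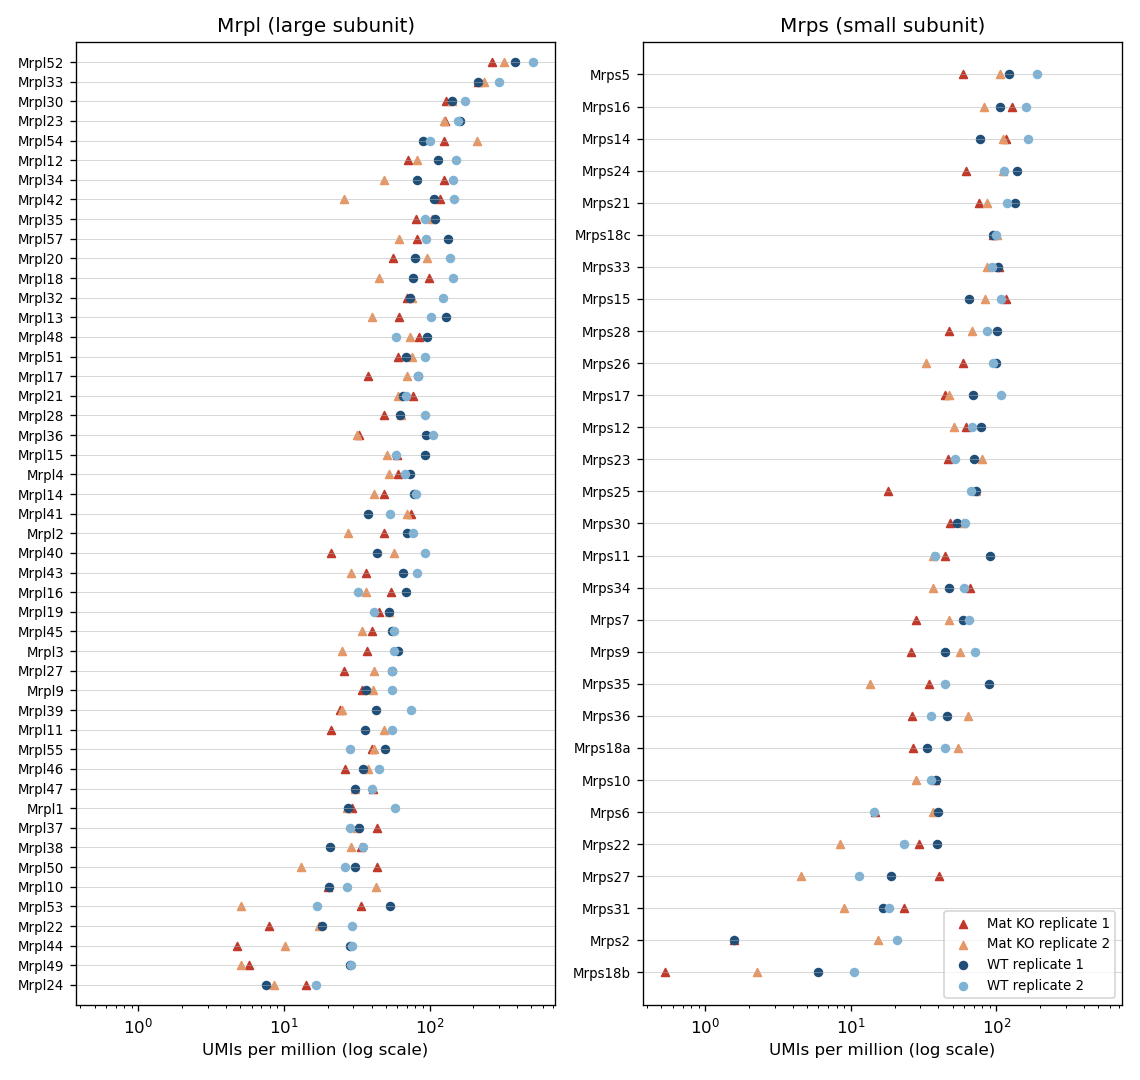
CPM (log scale) of each member in the 4 libraries, with Mrpl genes in one panel and Mrps genes in the other, ordered by mean level; triangles are Mat KO and circles WT. Mrpl52 leads at 267 to 517 CPM, and Mrps18b is last with 1 to 34 UMIs per library.

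The 8 lowest members, Mrps27, Mrpl22, Mrpl44, Mrpl49, Mrps31, Mrpl24, Mrps2 and Mrps18b, held 2.22% of the summed level. Mrps18b, 1 of 3 Mrps18 genes, had 1 and 4 UMIs in Mat KO, with 19 and 34 in WT, too few for a fold to be given. Mrps2, in the small subunit's S2 family, had 3 and 27 UMIs in Mat KO, with 5 and 68 in WT, so replicate 1 was low in both genotypes. Mrpl24 had 27 and 15 against 24 and 54 UMIs, and Mrps31 44 and 16 against 53 and 60. Mrpl22, of a family that lines the nascent chain tunnel, had 15 and 31 against 58 and 96 UMIs, which at 7.89 and 17.5 against 18.2 and 29.5 CPM is lower in both Mat KO libraries. Single cells weighed heavily in such genes: 1 cell gave all UMIs of Mrps18b in Mat KO replicate 1 and 80.0% of those of Mrps2 in WT replicate 1. In 12 of the 77 members 1 cell held over 50% of the UMIs of some library. This was a Mat KO library in 11 of them and a WT library in 3. The Mat KO libraries held fewer UMIs of the members, 8420 and 7993 against 17757 and 20588, and the part of this was not tested. The median member took 26.5% and 28.0% of its UMIs from its leading cell in Mat KO, with 21.6% and 18.3% in WT.

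Shorter members were counted at higher levels. Across the 77 members the Spearman rho of mean level and coding length was -0.48, and across 9943 tested genes with a length it was -0.08. With the length of the whole transcript it was -0.18 over the members. These are relations across genes, which are not independent replicates. The log2 fold change between genotypes had a rho of -0.01 with mean level and of -0.01 with coding length.

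No member passed the test of genotype. Of the 77 members, 0 were called by edgeR's quasi-likelihood test at an adjusted p of 0.05, against 8 of 10663 genes tested (0.075%), and DESeq2 also called 0 members and 120 genes (1.15%). Without adjustment, 10 members had p under 0.05 with a lower value in Mat KO and 1 with a higher value, where 3.32% and 4.5% of all genes tested did. The values were lower in Mat KO for 60 of 77 members (77.9%, against 50.6% of all genes tested), namely 37 of 48 Mrpl and 23 of 29 Mrps. The median log2 fold change was -0.38 over the members, -0.41 over Mrpl and -0.34 over Mrps, against -0.01 over all genes tested. Without WT replicate 2 the median over the members was -0.21 and 54 of 77 were lower. Both Mat KO libraries lay below both WT libraries for 28 members (36.4%, against 21.3% of all genes tested) and above them for 2 (against 17.8%). The other 47 overlapped. Among genes of like level, between 22.6 and 111 CPM, 75.4% of 61 members and 48.4% of 4763 other genes had a lower value, with medians of -0.43 and 0.03. In lineage-low cells 58 of 77 members (background 51.4%) had a lower value, with a median of -0.41.

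**Figure D3:**
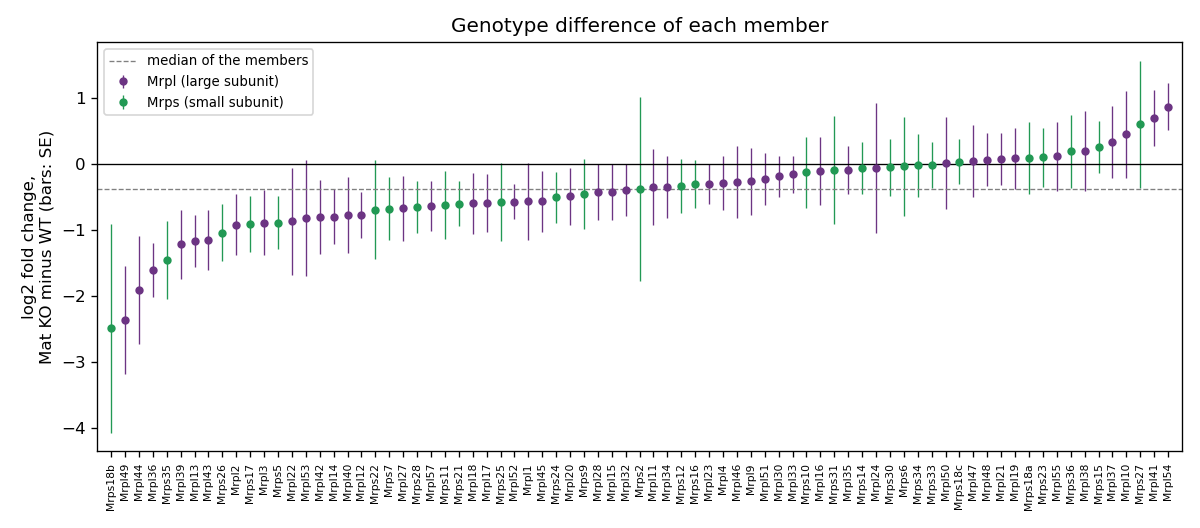
Log2 fold change of each member, Mat KO minus WT, with its standard error as a bar, ordered from the lowest to the highest; Mrpl and Mrps genes differ in colour and the dashed line is the members' median of -0.38. Of the 77 points 60 lie below 0, with Mrpl54 highest at 0.87 and the lowest point, Mrps18b, resting on 58 UMIs.

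The member with the smallest p was Mrpl36, whose protein is one of the smallest of the large subunit (mm10 chromosome 13, 73328513 to 73332178, plus strand, 2 exons). It had 32.6 and 31.7 CPM in replicates 1 and 2 of Mat KO and 94.2 and 106 in those of WT. The replicates of each genotype lay close together and the genotypes apart. Its log2 fold change was -1.61 (SE 0.41, n = 2 libraries each), with an adjusted p of 0.297 by edgeR's quasi-likelihood test. In lineage-low cells the log2 fold change was -0.86. Its gene overlaps Ndufs6 on the opposite strand, a gene of respiratory complex I. UMIs of Mrpl36 were present in 25 and 28 of the 48 cells of the WT libraries and in 12 of 44 and 14 of 48 cells of the Mat KO libraries, and at equal depth in 8 of 39 and 3 of 41 against 13 of 46 and 15 of 44.

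The next 7 members by p with a lower value were Mrpl13, Mrpl49, Mrpl43, Mrps35, Mrps26, Mrpl44 and Mrpl39. Mrpl13, of the bacterial L13 family, had 61.6 and 40.1 CPM in Mat KO, with 130 and 103 in WT (a log2 fold change of -1.17, SE 0.39). Mrpl49 had 5.79 and 5.09 against 28.6 and 28.9 (-2.36, SE 0.82), resting on 11 and 9 UMIs in Mat KO. Mrpl43 had 36.3 and 28.8 against 66.0 and 81.8 (-1.15, SE 0.45). In each of these both Mat KO values were below both WT values, and the distance between genotypes was larger than that between replicates. Mrps35 had 34.2 and 13.6 against 89.2 and 44.6 CPM (-1.45, SE 0.59), and Mrps26 59.5 and 32.8 against 99.0 and 94.7 (-1.04, SE 0.43). For these 2 small subunit genes, which are mitochondria-specific, replicate 2 was the lower in both genotypes. Mrpl44, a protein related in fold to ribonuclease III, had 4.74 and 10.2 against 28.6 and 29.2 (-1.91, SE 0.81), and Mrpl39, related in sequence to threonyl-tRNA synthetases, 24.2 and 24.9 against 42.7 and 74.1 (-1.22, SE 0.53). Their adjusted p by edgeR ranged from 0.528 for Mrpl13 to 0.614 for Mrpl39. Single libraries or cell sets moved some of these log2 fold changes by over 1.5 times. That of Mrps35 was -2.26 without Mat KO replicate 1, -0.96 without Mat KO replicate 2 and -0.88 without WT replicate 1, and that of Mrpl39 was -0.77 without WT replicate 2. In lineage-low cells it was -1.98 for Mrpl43, -1.52 for Mrpl49 and -1.19 for Mrpl44.

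The 6 members of smallest p with a higher value in Mat KO were Mrpl54, Mrpl41, Mrpl10, Mrps15, Mrps27 and Mrpl37. Mrpl54, a mitochondria-specific large subunit protein (mm10 chromosome 10, 81264713 to 81266934, minus strand, 3 exons), had 125 and 213 CPM in Mat KO, with 89.5 and 101 in WT. Both Mat KO libraries were above both WT libraries, and Mat KO replicate 2 was far above replicate 1. Its log2 fold change of 0.87 (SE 0.35, edgeR adjusted p = 0.591) was 0.40 without Mat KO replicate 2 and 0.27 in cells at equal depth. Mrpl54 was the only one of 17 members with a higher value that kept it in all 13 other fits. Mrpl41 had 74.7 and 69.5 against 38.0 and 53.2 (0.69, SE 0.43), but 1 cell gave 54.2% of its UMIs in Mat KO replicate 1, and at equal depth the log2 fold change was -0.22. Mrpl10, of the base of the ribosomal stalk, had 38 and 76 UMIs against 65 and 88 in the deeper WT libraries. Mrps15 had 117 and 83.1 CPM against 64.4 and 108, Mrps27, a pentatricopeptide repeat protein, 40.5 and 4.52 against 18.8 and 11.4, and Mrpl37 43.7 and 31.7 against 32.7 and 28.6. In these last 4 the libraries of the genotypes overlapped.

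Replicates of 1 genotype differed from each other as well. Among the 69 members with a mean of at least 20 CPM, the larger replicate was a median of 1.34 times the smaller in Mat KO and 1.32 times in WT, and over 2 times in 15 and 8 members. The Spearman rho between replicates over all 77 members was 0.67 in Mat KO and 0.82 in WT. Mrpl53 differed most, at 33.7 and 5.09 CPM for Mat KO against 53.1 and 16.9 for WT, so replicate 2 was the lower in both. Mrpl42 had 117 and 26.0 against 107 and 148, with Mat KO replicate 2 apart from the other 3 libraries. Mrps25 had 17.9 and 72.9 against 72.9 and 66.7, and here Mat KO replicate 1 stood apart. Mrps22 had 29.5 and 8.48 against 39.3 and 23.4. Without Mat KO replicate 1, Mrpl42 passed edgeR's test (log2 fold change -2.25, adjusted p = 0.0487), when 69 of 11624 genes (0.594%) were called, and the lone Mat KO library was then taken to vary as the WT libraries do.

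The number of members seen in a cell followed its depth, with a Spearman rho with UMIs per cell of 0.62 to 0.71 within the 4 libraries. The median cell had UMIs of 23 and 21.5 members in Mat KO, next to 31.5 and 35.5 in WT. Thinned to 8800 UMIs, which kept 39, 41, 46 and 44 cells and left out 5, 7, 2 and 4, the medians were 16 and 17 against 21 and 21, so that Mat KO stayed lower in both libraries. The median cell then held 32 and 31 UMIs of members in Mat KO, with 44.5 and 45 in WT. In lineage-low cells at that depth 13 and 15 members were seen against 19 and 21. After Mrpl52, the members seen in most of the 170 cells were Mrpl33 (105), Mrpl23 (88) and Mrpl30 (77). With a mean of at least 20 CPM, those seen in fewest were Mrpl55 (18), Mrpl47 and Mrpl53 (20 each) and Mrpl37 (23), the first at a mean level of 39.9 CPM. For Mrpl55, 1 cell gave 76.3% of the UMIs in Mat KO replicate 1.

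Cells with more UMIs tended to have a larger share of them in the members. The Spearman rho of share and UMIs per cell was 0.14 and 0.49 in replicates 1 and 2 of Mat KO and 0.25 and 0.43 in those of WT. In lineage-low cells it was 0.35 and 0.39 against 0.22 and 0.29, with the largest move in Mat KO replicate 1. With detected genes in place of UMIs it was 0.39, 0.46, 0.44 and 0.53, and with spike-in UMIs -0.19, 0.45, 0.11 and 0.15, in the same order. With the share of 28 S phase genes it was 0.36, 0.33, 0.24 and 0.52, and with that of cytosolic ribosomal proteins 0.22, 0.12, 0.21 and -0.12. Cells of a library share its preparation, and both quantities rest on the same total, so these are descriptions. Of cells below the median of 42461 UMIs, the members' share was 0.351% and 0.332% in Mat KO, with 0.478% and 0.417% in WT. Of cells at or above it, the shares were 0.474% and 0.513% against 0.569% and 0.657%. Deeper cells had the larger share in every library, and the genotypes did not overlap on either side, with 17 to 31 cells behind each value. Split at the median S phase share in the same way, the values were 0.357% and 0.385% against 0.515% and 0.443% below and 0.523% and 0.543% against 0.593% and 0.697% above, with 15 to 33 cells each.

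**Figure D4:**
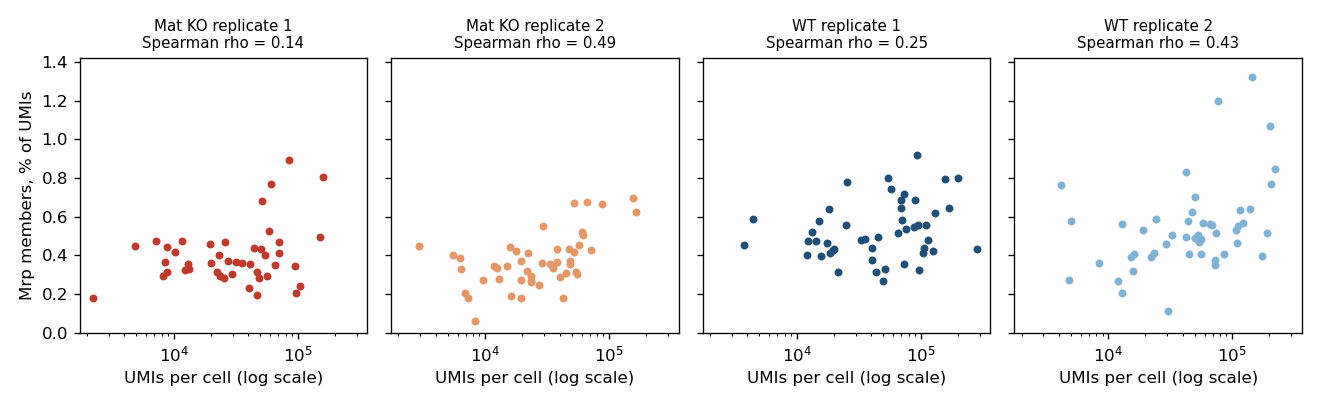
Percent of gene UMIs in the 77 members (vertical axis) against UMIs per cell (log scale), 1 point per cell and 1 panel per library, with the Spearman rho above each panel. The rho is 0.14 and 0.49 in Mat KO, with 0.25 and 0.43 in WT, and the highest shares are in cells of high depth.

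Genes that work with the mitochondrial ribosome were listed by function and set beside the members. No gene of these lists was called by edgeR, which called only 8 of 10663 genes tested (0.075%). Of 5 mitoribosomal proteins with other symbols, 4 had a lower value in Mat KO, with a median log2 fold change of -0.21. Gadd45gip1 had 116 and 63.3 against 166 and 116 CPM (-0.63) and Chchd1 82.6 and 41.3 against 102 and 88.5 (-0.59), while Ptcd3, a pentatricopeptide repeat protein of the small subunit, had 11.6 and 30.5 against 11.6 and 10.5. Of 14 tested mitochondrial translation factors 8 were lower (median -0.06). Among them the elongation factor gene Tufm had 13.2 and 9.05 against 16.6 and 48.9 CPM. Taco1, a translational activator of cytochrome c oxidase subunit I, had 12 and 8 UMIs in Mat KO and 0 in both WT libraries. Of 21 tested assembly and rRNA modification genes 14 were lower (median -0.23). Fastkd2 had 0.526 and 10.7 against 38.6 and 10.1 CPM, and Mterf3 26.3 and 45.8 against 18.8 and 22.4.

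The mitochondrial tRNA synthetases were evenly split, with 9 of 18 lower and a median of 0.02. Rars2, the arginyl-tRNA synthetase gene, had the smallest p of the list, at 13.2 and 10.2 against 84.5 and 44.0 CPM (-2.42, SE 0.59, edgeR adjusted p = 0.267), so that both Mat KO libraries lay far below WT. Of 6 genes of mitochondrial transcription and RNA handling 2 were lower (median 0.05), and these included the RNA polymerase gene Polrmt, at 4.74 and 7.35 against 13.8 and 18.4. The transcription factor gene Tfam had 105 and 72.9 against 60.3 and 68.8, so that both Mat KO libraries were above WT. Values were lower in nearly all genes of 2 other lists, 80 of 81 tested cytosolic ribosomal proteins (median -0.27) and 26 of 28 S phase genes (median -0.70). At an unadjusted p under 0.05 by edgeR there were 9 cytosolic ribosomal proteins and 9 S phase genes, all with a lower value (against 3.32% of all genes tested), beside Rars2 with a lower and Taco1 with a higher value. The ribosomal protein genes of smallest p were Rps26, at 1850 and 2363 against 3365 and 2770 CPM (-0.51), and Rpl39, at 2132 and 2523 against 3246 and 3244 (-0.45). Among S phase genes they were Dut, a dUTPase gene, at 121 and 113 against 223 and 339 (-1.23), and Mcm2, of the replicative helicase, at 35.3 and 15.8 against 89.5 and 102 (-1.88), and in all 4 both Mat KO libraries lay below WT. DESeq2 called 3 genes of these lists, against 1.15% of all genes tested. They were Rars2 of the 18 tested tRNA synthetases, and Dut and Mcm2 of the 28 S phase genes. Cytosolic ribosomal proteins held 15.7% and 18.2% of UMIs in Mat KO, with 21.1% and 20.8% in WT, and S phase genes 0.183% and 0.161% against 0.236% and 0.347%. For each 100 UMIs of cytosolic ribosomal proteins there were 2.82 and 2.48 UMIs of the members in Mat KO, with 2.64 and 3.04 in WT, so relative to them the genotypes overlapped.

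**Figure D5:**
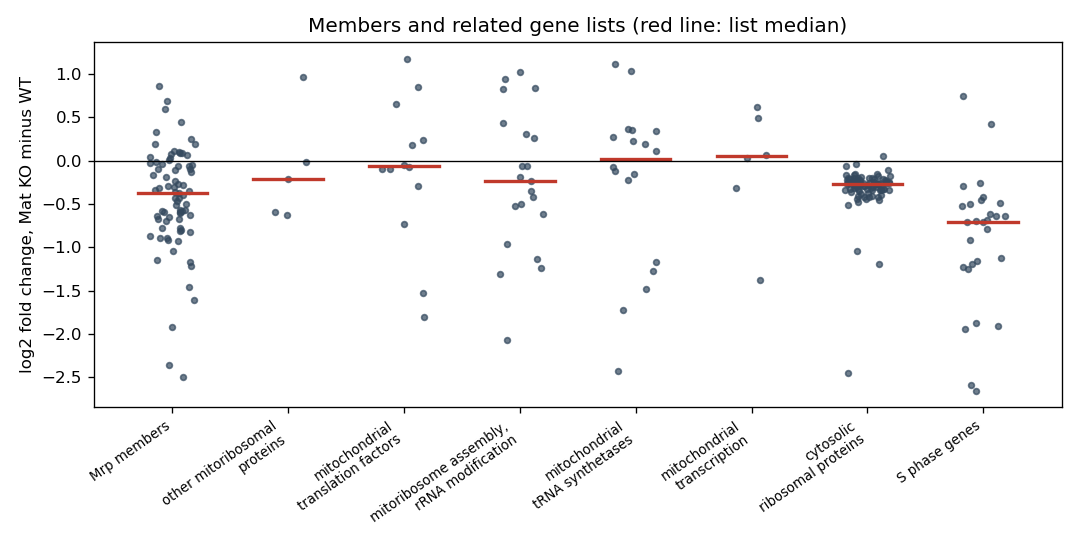
Log2 fold change, Mat KO minus WT, of each tested gene (points) of the members and of 7 related lists, with the list's median as a red line; Taco1, at 0 in WT, is left out of the points. The medians run from -0.70 for S phase genes to 0.05 for mitochondrial transcription, with -0.38 for the members.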

How the data were processed

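The authors deposited unnormalized UMI counts by gene for each barcode, 1 table per library with 96 barcodes. Per the submitters' processing notes, mm10, HTSeq and TopHat2 2.0.12 were used, in roles that the notes do not give. The treatment of reads shared by near-identical copies is not stated there, and GENCODE M21 names 5 pseudogenes after members. Of 24506 entries per table, 95 spike-in and marker sequences were left out. A barcode was kept as a cell from 1000 detected genes on. No doublet caller was run, since cells were picked singly.

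Cells are not replicates, so their counts were added up within each library and tested with edgeR 4.0.16 (R 4.3.3; TMM, filterByExpr, quasi-likelihood, genotype as the only term) over 10663 genes, with Benjamini-Hochberg adjustment at 0.05. All 77 members passed the filter. For equal depth, cells were thinned to 8800 UMIs, the 10th percentile, which left out 18 cells. A cell counted as lineage-low unless at least 3 genes and 0.5% of its UMIs came from 1 of the granulocyte or monocyte, B, erythroid or T and NK lists. Start regions are from RefSeq (GRCm38.p6) and gene positions from GENCODE M21 (GRCm38, the mm10 build). Gene models of 2 sources can place a start differently.

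The members and lists were chosen with earlier results of these data known, so no p is given over a list. Named members were the 8 highest and 8 lowest by mean level, the 8 lower and 6 higher of smallest p, the 4 of largest replicate difference, the 4 seen in most and the 4 in fewest cells among members with a mean of at least 20 CPM, and 2 genes of smallest p per related list. A gene that this rule names is not reported here. Others were named for their place in the genome or structure. Alternatives were DESeq2 1.42.0, other filters, scalings and cell sets, leaving out each library, and the replicate block. Cells split by depth or S phase share, the leading cell of each gene left out, Mrpl52 left out and Mrps18a and Mrps30 moved were added after seeing the data.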

Additional observations from a re-analysis of the deposited data

Results flagged for a closer look

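Barcodes that were not kept as cells still held a few UMIs of the members, outside the comparisons above and over the 3 counts allowed for by a count of 0: 18 in Mat KO replicate 1, 4 in Mat KO replicate 2, 14 in WT replicate 1 and 14 in WT replicate 2. These barcodes held 8911, 769, 1293 and 1164 UMIs in all, so the members made up 0.202%, 0.520%, 1.08% and 1.20% of them. The sets are unlike: in Mat KO replicate 1 they include 4 barcodes numbered up to 48 with too few genes to be kept, and in the other libraries only barcodes numbered over 48. Over 48, Mat KO replicate 1 held 1 UMI of the members in 721 (0.139%).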

How the results depend on the processing

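The share of UMIs in the members was lower in Mat KO under every alternative, but the difference of -0.148 percentage points became -0.106 in cells below the median UMIs and -0.108 in cells below the median S phase share. Leaving out 1 library moved it between -0.185 and -0.110. The members' median log2 fold change of -0.38 became -0.44 in cells at equal depth and -0.43 when the leading cell of every gene was dropped, and ranged from -0.52 to -0.21 when 1 library was left out. The value of -0.21 is that without WT replicate 2, where 54 of 77 members were lower. The median of all genes was -0.11 and -0.10 without Mat KO replicates 1 and 2, each left out alone, and 0.04 without either WT replicate. Of the 60 members with a lower value, 38 kept it whichever library was left out and 35 in all 13 other fits that tested them. The number of genes called was 8, and 120 with DESeq2, 149 with no filter on low counts, 109 with the replicate block, 5 in cells with at least 2000 genes, 3 at equal depth, 1 in lineage-low cells, 0 when every gene's leading cell was dropped (740 genes at an unadjusted p under 0.05 by edgeR) and 17 to 123 with 1 library left out. Across genes, the deviations of equally numbered replicates from their genotype mean had a correlation of -0.017. With 2 libraries per genotype this is a single value, which cannot show whether the samples were paired. With the replicate block 59 members were lower and Mrpl36 had an edgeR adjusted p of 0.0799. The Mrpl to Mrps ratio changed by -0.037 between genotypes, by 0.035 without Mat KO replicate 2, by 0.060 without WT replicate 2 and by 0.0033 with Mrps18a and Mrps30 in the large subunit, and ranged from -0.135 to 0.060 with 1 library left out. Members seen per cell differed by -4.5 at equal depth, -8.75 at 17600 UMIs, -11.25 without thinning, -6 in lineage-low cells and -5 to -4 with 1 library left out. Log2 fold changes turned for Mrpl41 at equal depth (-0.22), Mrpl10 in lineage-low cells (-0.057), Mrps15 in lineage-low cells (-0.0047) and Mrpl37 at equal depth (-0.019) and in lineage-low cells (-0.023). With 1 library left out, that of Mrpl10 ranged from -0.24 to 0.90, that of Mrps15 from -0.084 (without WT replicate 1) through -0.0088 (without Mat KO replicate 1) to 0.66, and that of Mrps27 from -1.69 (without Mat KO replicate 1) to 1.43. At equal depth 65 members were tested. Where a result moved, the cause was not tested, except that thinning, leaving out libraries and choosing cells leave fewer UMIs. With 2 libraries per genotype and a median of 84.5 to 260 UMIs of the members per cell, the standard error of a log2 fold change was 0.27 to 1.58 over the members, which limits what could be detected.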
